A study of Mus musculus with 8 samples.

Results

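Oligo3 was the cluster that held most of the mature oligodendrocytes of wild-type mice. Its members were the cells with cluster number 3 in the deposited cell table from the 4 wild-type libraries, and no gene level was used here to choose them. They numbered 4363 of the 5885 wild-type oligodendrocytes and of the 12581 cells in the whole series. Cells of the neighbouring clusters from the same libraries served for comparison, 1107 in Oligo2 and 409 in Oligo4. The remaining 6 wild-type cells, all in Oligo1, were not compared.

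The series set wild-type mice beside mice without Fire, an enhancer in an intron of Csf1r whose loss leaves the brain without microglia. The groups used here were 2 hippocampus and 2 cortex libraries from 2 wild-type (Fire+/+) females, mouse 1 aged 1 month and 18 days and mouse 4 aged 1 month and 16 days. They carried no deletion of this enhancer, and the line was kept on a mixed CBA and C57BL/6J background. Hippocampi came from both hemispheres, and the library labelled cortex was made from what was left of the left hemisphere, so it was not cortex alone. Cells were dissociated with actinomycin D, which blocks transcription, and sorted by light scatter before droplet capture. Each library was its own batch in the deposited table, so library and batch cannot be told apart, and the methods describe the batch with the cortex library of mouse 4 as poorer.

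Oligodendrocytes wrap axons in myelin, a stack of membrane rich in cholesterol and galactolipids and held together by proteins such as myelin basic protein (Mbp). They arise from progenitors, pass through a short newly formed stage marked by genes such as Enpp6, and then differ among themselves as mature cells. Ptgds (prostaglandin D synthase), Apod, Il33, Klk6 and Opalin are among the genes used to tell mature oligodendrocytes apart.

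The label was checked against Mog and Mag, which encode surface glycoproteins of the myelin sheath. A level here is the mean over cells of log2 of the UMI count (captured RNA molecules) divided by the size factor of the cell, plus 1. Mog was at 3.93 and 3.86 in Oligo3 of the hippocampus of mice 1 and 4 and at 3.89 and 3.84 in the cortex. Mag was at 4.76, 4.43, 4.69 and 4.38 in the same order. Both markers were thus present at similar levels in every library. Of 6 general oligodendrocyte markers, none differed by 0.5 or more from either neighbour. Against each, 5 were lower in all 4 libraries, with medians of -0.10 against Oligo2 and -0.36 against Oligo4. Of all genes compared, 2385 of 9437 were lower in all 4 libraries against Oligo2 and 1793 of 9512 against Oligo4. The 6 markers together took 594 to 684 UMIs per 10000 in Oligo3, 713 to 810 in Oligo2 and 746 to 870 in Oligo4. Oligo3 thus did not overlap with its neighbours. Mbp averaged 5.27 in Oligo3, 5.38 in Oligo2 and 5.40 in Oligo4.

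Oligo3 cells made up 77.8% of the cells in the hippocampus of mouse 1 (95% Clopper-Pearson interval 76.1 to 79.5), 67.0% in that of mouse 4 (64.1 to 69.9), 73.8% in the cortex of mouse 1 (71.3 to 76.1) and 73.5% in that of mouse 4 (70.8 to 76.0). The intervals cover counting error only. The hippocampus had 72.4% ± 7.60 (SD, n = 2) and the cortex 73.6% ± 0.217 (SD, n = 2), a difference of -1.20 percentage points, with a two-sided exact permutation p of 1.0, where 4 libraries allow no p under 0.333. The difference had opposite signs in the mice, 4.02 points in mouse 1 and -6.42 in mouse 4.

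In each of the 4 libraries Oligo3 cells were shallower than both neighbours. Their median UMI count was 9097.5 and 12827 in the hippocampus of mice 1 and 4 and 12007 and 10605 in the cortex, and their median number of detected genes ran from 2970.5 to 3627.5. The median share of mitochondrial UMIs was 4.97%, 5.30%, 5.76% and 6.50% in the same order of libraries, above Oligo2 and Oligo4 in each. The part of depth and RNA quality in the differences below was not tested beyond the values computed at equal depth. The clusters had been made from these same expression values, so every difference between clusters is a description and carries no test. A gene was called when its mean difference reached 0.5 on the log2 scale and the sign was the same in all 4 libraries.

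Against Oligo2, Oligo3 was set apart first by Ptgds. Of 9437 genes compared, 23 were higher in Oligo3 (0.244%) and 36 were lower (0.381%). On log2 of CPM of summed UMIs plus 10, the same limit gave 199 higher and 302 lower. The higher genes were led by Ptgds, Apoe, which encodes a lipid-carrying apolipoprotein, Il33, a nuclear cytokine released on damage, and Opalin, a membrane glycoprotein of oligodendrocytes. The lower genes were led by the selenium carrier Selenop, the choline phosphodiesterase Enpp6 and the myelin protein Pmp22.

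**Figure D1:**
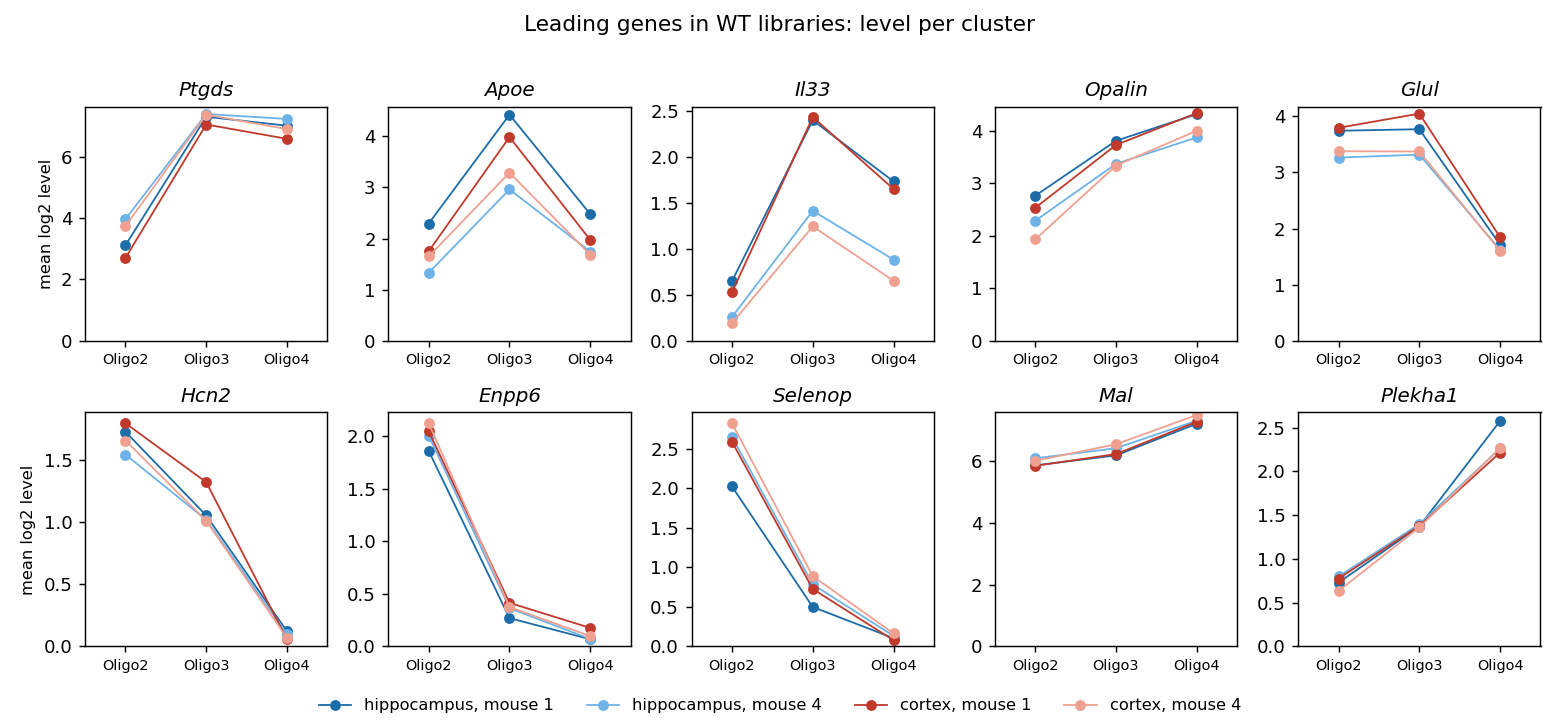
Mean log2 level (vertical axis) of 10 genes in Oligo2, Oligo3 and Oligo4 (horizontal axis), with 1 line for each of the 4 wild-type libraries. Ptgds rises from a mean of 3.38 in Oligo2 to 7.28 in Oligo3, Apoe and Il33 peak in Oligo3, and Enpp6 and Selenop fall from Oligo2 to Oligo4.

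Ptgds was at 7.30 and 7.39 in Oligo3 of the hippocampus of mice 1 and 4 and at 7.05 and 7.37 in the cortex. The same libraries had 3.11, 3.97, 2.70 and 3.74 in Oligo2. All Oligo3 values lay far above all Oligo2 values, and the mean difference was 3.90 ± 0.52 (SD, n = 2 mice). With each cell thinned to 5000 UMIs, the median Oligo3 cell held 105, 113, 89 and 106 Ptgds molecules in these libraries, against 4, 10, 3 and 7 in Oligo2. Among Oligo3 cells of the hippocampus of mouse 1, the 10th percentile was 38 molecules and the 90th 246.5, so even the low end stood above the Oligo2 median.

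Apoe was at 4.42, 2.96, 3.99 and 3.29 in Oligo3 and at 2.29, 1.33, 1.75 and 1.65 in Oligo2, with hippocampus before cortex and mouse 1 before mouse 4. The groups did not overlap, and mouse 1 was the higher animal in Oligo3. The mean difference was 1.91 ± 0.39 (SD, n = 2 mice). Apoe is abundant in astrocytes, so the summed level of 7 astrocyte markers was set beside it. That sum was 2.06 to 2.45 UMIs per 10000 in Oligo3, 1.74 to 2.44 in Oligo2 and 1.19 to 1.33 in Oligo4, with no marker at 0 throughout a cluster. None of the 6 tested astrocyte genes was called in either comparison, and the astrocyte glutamate transporter Slc1a2 differed by 0.19 from Oligo2 and by 0.25 from Oligo4.

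Il33 was at 2.40, 1.41, 2.43 and 1.24 in Oligo3 and at 0.65, 0.26, 0.53 and 0.19 in Oligo2. Both libraries of mouse 1 were high and both of mouse 4 low, in either cluster, and the mean difference was 1.46 ± 0.51 (SD, n = 2 mice). Opalin was at 3.81, 3.37, 3.73 and 3.34 in Oligo3 and at 2.76, 2.28, 2.53 and 1.93 in Oligo2, again without overlap. Its mean difference was 1.18 ± 0.09. The other named higher genes were the uncharacterised transcript C030029H02Rik (0.86), the tetraspanins Cd9 (0.85) and Cd63 (0.79), the semaphorin Sema6d (0.85), the adaptor Grb14 (0.83) and the actin-binding Clmn (0.81).

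Enpp6, a marker of newly formed oligodendrocytes, was at 0.27, 0.36, 0.41 and 0.38 in Oligo3 and at 1.86, 2.01, 2.05 and 2.12 in Oligo2. The mean difference was -1.65 ± 0.06 (SD, n = 2 mice), nearly equal in all libraries. Selenop was at 0.50, 0.78, 0.73 and 0.89 in Oligo3 against 2.02, 2.65, 2.59 and 2.82 in Oligo2, a difference of -1.79 ± 0.15. Pmp22 differed by -1.44, the actin-bundling Anln by -1.28, the transporter Slco3a1 by -1.11 and the apolipoprotein Apod by -1.06. The tubulin-binding Tppp3 (-1.01), the lipid droplet protein Plin3 (-0.99), the protease inhibitor Serpinb1a (-0.96) and the calcium-binding S100b (-0.94) completed the 10 lowest.

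Enpp6 stood alone in its list. Of 11 tested genes of the newly formed stage, Enpp6 was the only one called lower than in Oligo2, and 8 of the 11 were slightly higher in all 4 libraries, as were 1548 of all 9437 genes. Bcas1, another gene of that stage, averaged 1.37 in Oligo3 and 1.30 in Oligo2, and Gpr17, a receptor of committed precursors, averaged 0.05 and 0.03. The list median was 0.05, beside -0.00381 over all genes.

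Against Oligo4, Oligo3 was higher in 28 of 9512 genes (0.294%) and lower in 21 (0.221%). On the scale of CPM the counts were 269 and 148. The higher genes were led by Glul (glutamine synthetase), Apoe, Gng11 (a G protein subunit), Sez6l2 and the transcription factor Etv1. The lower genes were led by the raft protein Mal, the phosphoinositide-binding Plekha1 and the lysophosphatidic acid receptor Lpar1.

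Glul was at 3.77, 3.32, 4.05 and 3.37 in Oligo3 and at 1.71, 1.62, 1.85 and 1.60 in Oligo4. The mean difference was 1.93 ± 0.28 (SD, n = 2 mice), whereas Oligo2 had nearly the Oligo3 level, with a difference of 0.08. Apoe stood 1.70 ± 0.40 above Oligo4, where it was at 2.48, 1.74, 1.97 and 1.68. Hcn2, a pacemaker cation channel, was at 1.06, 1.02, 1.32 and 1.01 in Oligo3 and at 0.12, 0.10, 0.06 and 0.07 in Oligo4, close to 0 there. Gng11 differed by 1.61, Sez6l2 by 1.27, Etv1 by 1.22, the channel-trafficking protein Pex5l by 1.16, Serpinb1a by 1.12, Anln by 0.96 and the signal peptidase subunit Sec11c by 0.93.

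Mal was at 6.20, 6.43, 6.24 and 6.56 in Oligo3 and at 7.23, 7.33, 7.29 and 7.51 in Oligo4. Every Oligo4 library was above every Oligo3 library, and the mean difference was -0.98 ± 0.08 (SD, n = 2 mice). Plekha1 was at 1.37, 1.40, 1.38 and 1.36 in Oligo3 against 2.58, 2.26, 2.21 and 2.27 in Oligo4, a difference of -0.95 ± 0.10. Lpar1 differed by -0.86, Sh3gl3 by -0.71, the tetraspanin Tspan2 by -0.68, the growth factor Ptn by -0.65 and the tight junction protein Cldn11 by -0.64. Prickle1 (-0.63), Grb14 (-0.62) and the mannosidase Man1a (-0.61) closed the list.

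On mean log2 levels, few called genes separated Oligo3 from both neighbours in the same direction. Apoe and Il33 were the 2 genes called higher against both, and Hmgcs1, which encodes a synthase early in the cholesterol pathway, was the only gene called lower against both. Il33 in Oligo4 was at 1.73, 0.88, 1.65 and 0.65, so each library had its highest Il33 level in Oligo3, by 0.64 on average. Ptgds was 0.35 above Oligo4, short of the limit. Another 16 genes were called against both neighbours in opposite directions, 11 lower than in Oligo2 and higher than in Oligo4 and 5 the other way round. On the scale of CPM more genes were called against each neighbour, and the number called against both is not given here.

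**Figure D2:**
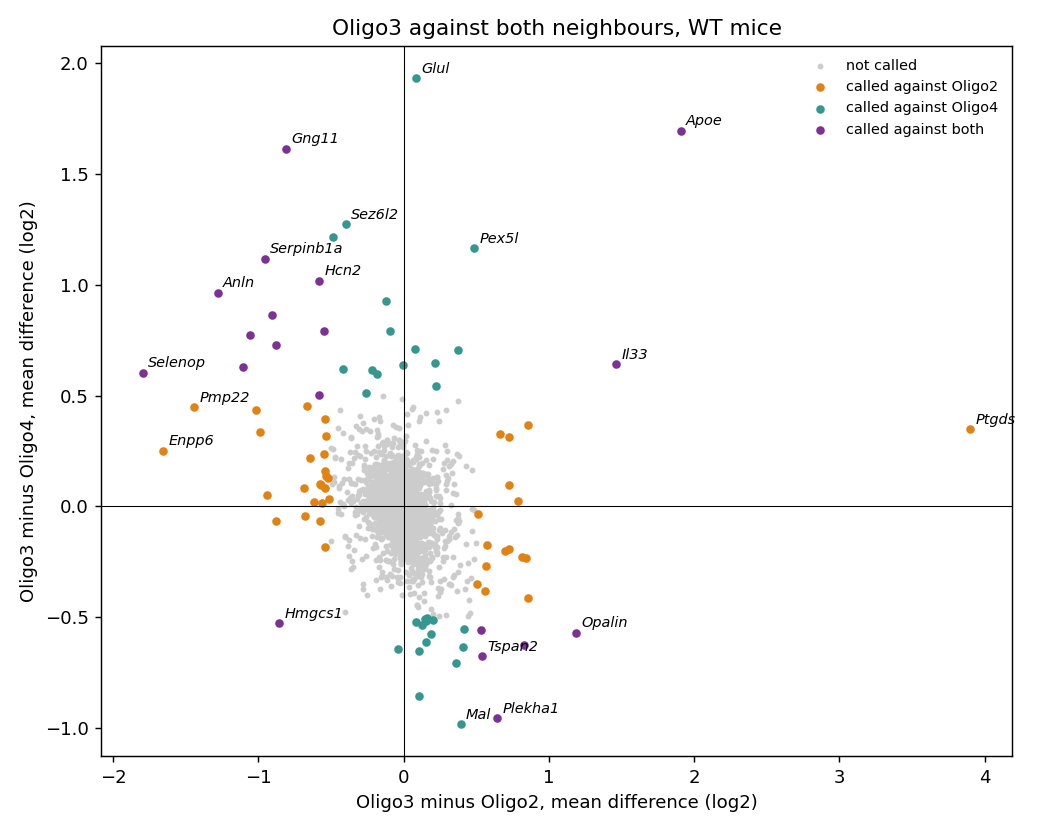
Each point is a gene, placed by the mean difference of Oligo3 from Oligo2 (horizontal axis) and from Oligo4 (vertical axis), both on the log2 scale over 4 wild-type libraries, with colours for genes called in either or both. Of the genes called against both, Apoe and Il33 are at the upper right, Hmgcs1 is at the lower left, and the others lie at the upper left or lower right; both axes share the Oligo3 cells.

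Along the axis from Oligo2 to Oligo4, Oligo3 was mostly in between. Between these neighbours, 163 of 9677 genes differed by 0.5 or more with the same sign in all libraries (1.68%), and for 152 of them the mean level of Oligo3 lay between. Of these, 83 were nearer to Oligo4 and 69 nearer to Oligo2, with a median position of 0.53 on a scale from 0 at Oligo2 to 1 at Oligo4. Enpp6 was at 0.87 of the way, Opalin at 0.68, Anln at 0.57, Serpinb1a at 0.46, Gng11 at 0.33 and Mal at 0.29. Oligo3 lay above both neighbours for 7 genes, Ptgds, Glul, Il33, Pex5l, Car2, Mt1 and Cd63, and below both for 4, Cldn11, Kcnq1ot1, Idi1 and Cpox, all chosen by this count after the values were seen.

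The promoter stretches of the 3 genes with the largest upward differences from Oligo2 are shown because the mean levels of these genes in Oligo3 were above those of both neighbours. They are the 250 bases before a RefSeq start on build GRCm38.p6, printed in the direction of transcription, and for genes with several listed starts the one nearest the principal GENCODE transcript was taken. The reads do not tell which start is used. Capitals mark ACAAAG or its reverse complement CTTTGT, a form of the core that Sox factors such as Sox10 recognise. Other forms were not searched for. Ptgds is on the minus strand at chr2:25469750-25469999, Apoe on the minus strand at chr7:19699189-19699438 and Il33 on the plus strand at chr19:29945540-29945789.
Ptgds: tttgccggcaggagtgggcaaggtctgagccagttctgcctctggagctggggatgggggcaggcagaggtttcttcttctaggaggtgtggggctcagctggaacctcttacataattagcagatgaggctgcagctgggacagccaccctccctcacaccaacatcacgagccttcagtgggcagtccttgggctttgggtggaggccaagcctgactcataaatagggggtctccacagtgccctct
Apoe: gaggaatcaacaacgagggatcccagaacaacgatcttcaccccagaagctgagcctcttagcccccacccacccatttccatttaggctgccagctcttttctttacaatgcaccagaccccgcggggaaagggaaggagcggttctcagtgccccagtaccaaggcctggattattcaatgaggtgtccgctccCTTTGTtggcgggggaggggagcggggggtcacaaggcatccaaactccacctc
Il33: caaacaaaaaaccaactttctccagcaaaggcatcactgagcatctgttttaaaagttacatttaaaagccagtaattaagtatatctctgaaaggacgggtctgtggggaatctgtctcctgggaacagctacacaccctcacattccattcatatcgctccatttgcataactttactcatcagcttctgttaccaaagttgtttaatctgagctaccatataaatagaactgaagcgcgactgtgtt
The marked form was found once before Apoe and not in the windows of Ptgds and Il33. Of 32851 windows of this length in the table, 16.5% hold it.

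The myelin genes split by neighbour. Of 17 genes of compact myelin and the sheath, 3 were called higher than in Oligo2 (Opalin, Cd9 and Tspan2) and 4 lower than in Oligo4 (Mal, Cldn11, Opalin and Tspan2), and the list medians were -0.04 and -0.36. Mobp, which encodes a structural protein of compact myelin, differed by -0.28 from Oligo2 and by -0.37 from Oligo4. Of 13 lineage transcription factors tested, none was called in either comparison. Olig2, needed to specify the lineage, differed by 0.36 from Oligo2 and by -0.06 from Oligo4, and Sox10 by 0.07 and 0.05.

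Genes of cholesterol synthesis were lower in Oligo3 than in Oligo2 almost throughout the pathway. All 24 were compared, 22 were lower in all 4 libraries and none was higher in all, while 2 passed the limit of 0.5 (Hmgcs1 and Idi1). Among all 9437 genes, 2385 were lower in all 4 libraries. Hmgcs1 was at 1.34, 1.85, 1.43 and 1.61 in Oligo3 against 2.23, 2.80, 2.22 and 2.41 in Oligo2, and at 1.91, 2.11, 2.13 and 2.18 in Oligo4. Idi1, an isomerase of the same pathway, differed from Oligo2 by -0.58, Msmo1 by -0.50, Fdps and Sqle by -0.41 each and Cyp51 by -0.36. The list took 16.8, 23.9, 18.5 and 22.0 UMIs per 10000 in Oligo3 and 28.8, 40.9, 30.8 and 33.9 in Oligo2, without overlap. Against Oligo4 the list was weaker, with 9 of 23 genes lower in all libraries, where 1793 of all 9512 genes were, a median of -0.05 and 1 call. With cells thinned to equal depth, 21 genes remained lower than Oligo2 in all libraries and 5 lower than Oligo4, an alternative added after the values were seen.

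Of 19 genes of fatty acid, sphingolipid and galactolipid synthesis, none was called in either comparison, with medians of -0.12 against Oligo2 and -0.02 against Oligo4. Mature markers went in both directions. Of 19 late markers, 4 were called higher than in Oligo2 (Ptgds, Il33, Qdpr and Jph4) and 6 lower (Apod, Anln, S100b, Serpinb1a, Slco3a1 and Hapln2). Of all genes, 0.244% were called higher than in Oligo2 and 0.381% lower. Against Oligo4, 8 of the 19 late markers were higher and none lower, with a median of 0.35. The shares of all genes there were 0.294% and 0.221%. Of 8 tested genes of the Klk6 type, 7 were lower than in Oligo2 in all libraries, where 2385 of all 9437 genes were. Selenop was called lower. Klk6, a secreted protease, averaged 0.01 in Oligo3, 0.40 in Oligo2 and 0.00 in Oligo4.

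In the group for iron handling, the transferrin gene Trf differed by -0.58 and the ferritin chain Fth1 by -0.53 from Oligo2, and Trf by 0.50 from Oligo4, the 3 calls of that list. Hcn2 was the only called gene of 13 gap junction and channel genes, lower than in Oligo2 by -0.58 and higher than in Oligo4 by 1.02. Lgi3, a secreted protein of the axon-glia contact, was 0.56 above Oligo2 and was the only call of its list. Ldhb, a lactate dehydrogenase subunit, was the only call among 16 genes of glycolysis and lactate export, at -0.65 against Oligo2. In the cytoskeleton list Tppp3, Gsn and Tuba1a were lower than in Oligo2 and none of 21 genes was called against Oligo4. Gsn also gave the only call against Oligo2 among 11 myelin-forming genes, and Slc9a3r2 the only call against Oligo4.

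All 13 mitochondrially encoded genes were higher in Oligo3 than in Oligo2 in all 4 libraries, with a median of 0.29 and a highest value of 0.33, and 10 of 13 were higher than in Oligo4, with a median of 0.14. None reached 0.5. Of all genes, 1548 of 9437 were higher than in Oligo2 and 1296 of 9512 higher than in Oligo4 in all 4 libraries. Of 81 cytosolic ribosomal protein genes none was called, though 61 were higher than in Oligo4 in all libraries, where 1296 of 9512 genes were, with a median of 0.11. The lists for immediate early, heat shock, interferon and MHC class I, stress response and lysosomal genes gave no call in either comparison. Mt1 was the only call among glucocorticoid-responsive genes (0.73 against Oligo2), and Cd63, a tetraspanin, the only call in a list of genes raised in reactive oligodendrocytes, of which 4 were tested against Oligo2 and 3 against Oligo4. C4b and Serpina3n, a complement and a serpin gene of that list, averaged 0.07 and 0.02 in Oligo3.

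No tested marker of other cells was called against either neighbour, but many were detected in too few cells to be tested. Against Oligo2, 1 of 6 neuronal, 1 of 5 progenitor, 2 of 7 endothelial and mural and 2 of 5 erythrocyte genes were tested. Against Oligo4 these numbers were 1, 2, 1 and 2. Of 7 astrocyte genes 6 were tested against each neighbour, of 11 microglial genes 9, and of 6 choroid plexus and ependymal genes 3. Microglial markers summed to 0.60 to 1.63 UMIs per 10000, progenitor markers to 0.21 to 0.35, neuronal markers to 0.14 to 0.70 and endothelial and mural markers to 1.75 to 2.52. The endothelial and mural sum was 2.10 to 3.24 in Oligo2 and 1.21 to 1.35 in Oligo4, and thus did not overlap between Oligo3 and Oligo4. The astrocyte sum did not overlap with Oligo4 either. The 1 endothelial and mural gene tested against Oligo4 differed by 0.32. That list includes Bsg, and its sum was not split by gene. The endothelial and mural sum alone thus does not show RNA of vessels. Of 6 tested astrocyte genes, 5 were higher than in Oligo4 in all 4 libraries, where 1296 of all 9512 genes were. Csf1r, the receptor carried by microglia, averaged 0.06 in Oligo3, 0.05 in Oligo2 and 0.06 in Oligo4. Erythrocyte markers varied most between libraries, with 7.05, 0.32, 0.36 and 3.13 in Oligo3 and 27.1, 0.31, 6.77 and 0.15 in Oligo2, and at most 0.30 in Oligo4. Choroid plexus and ependymal markers summed to 17.5 to 19.6 in Oligo3, 18.1 to 19.2 in Oligo2 and 14.5 to 16.8 in Oligo4. In Oligo3, 2 of the 6 genes were at 0. This list includes Enpp2, and its sum was not split by gene. The sum alone thus does not show RNA of choroid plexus or ependymal cells. The part of RNA from other cells in the differences was not tested.

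A finer clustering from the deposited cell table divided Oligo3 into 4 larger groups, called here by their numbers. Fine cluster 4 held 2489 cells, fine cluster 6 held 905, fine cluster 8 held 584 and fine cluster 7 held 326. Another 59 cells (1.35%) fell into 4 fine clusters with under 20 cells in each library and were not described as groups, but stayed among the other Oligo3 cells to which each larger fine cluster was compared. Fine cluster 6 also held 316 Oligo2 cells and fine cluster 7 also held 252 Oligo4 cells, so both borders of Oligo3 run through a fine cluster.

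**Figure D3:**
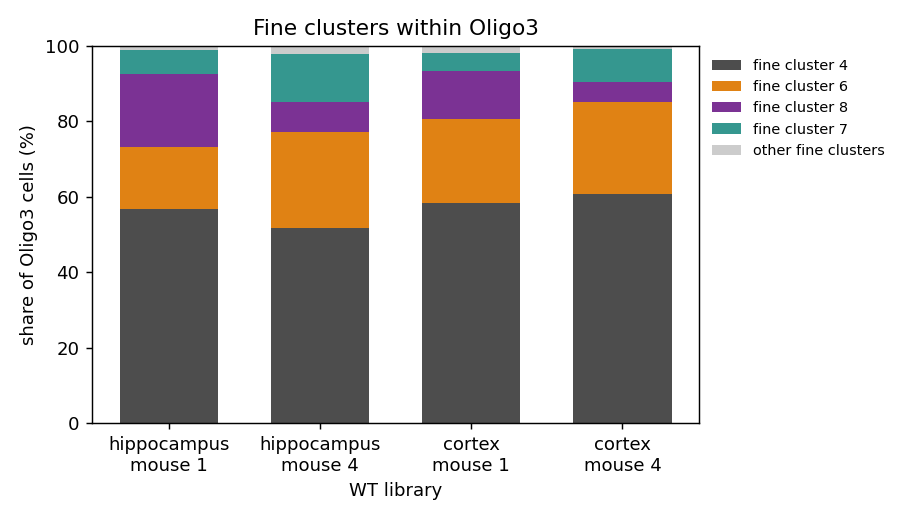
Bars give the share of Oligo3 cells (vertical axis, percent) in each fine cluster for the 4 wild-type libraries. Fine cluster 4 takes 51.9% to 60.7% in every library, and fine cluster 8 takes 19.4% and 12.5% in mouse 1 and 8.12% and 5.45% in mouse 4.

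Fine cluster 4 made up 56.7%, 51.9%, 58.3% and 60.7% of Oligo3 in the hippocampus of mice 1 and 4 and the cortex of mice 1 and 4. Fine cluster 6 took 16.5%, 25.2%, 22.4% and 24.4%, and fine cluster 7 took 6.34%, 12.7%, 4.85% and 8.73%. Fine cluster 8 took 19.4%, 8.12%, 12.5% and 5.45%, higher in both libraries of mouse 1 than in both of mouse 4. With 2 mice in different batches, mouse and batch cannot be told apart, and these shares had no test.

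Fine cluster 4, the largest, had the fewest called genes against the other Oligo3 cells. None of 9259 genes was higher (0%) and 2 were lower (0.0216%), Hcn2 by -0.60 and Selenop by -0.58. Without mouse 4 these counts were 1 and 6.

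The leading genes of fine cluster 6 differed from the other Oligo3 cells in the direction of Oligo2. Of 9278 genes, 12 were higher (0.129%) and 3 lower (0.0323%). Selenop was at 1.05, 1.44, 1.42 and 1.76, a difference of 0.89 ± 0.17 (SD, n = 2 mice), and Enpp6 was at 0.85, 0.98, 1.04 and 0.97, a difference of 0.78 ± 0.04. Anln (0.86), Serpinb1a (0.77) and Slco3a1 (0.67) were higher as well. Each of these 5 genes was also among those lower in Oligo3 than in Oligo2. Ptgds was at 6.03, 6.81, 5.99 and 6.68, lower by -1.14 ± 0.42, and Apoe was lower by -0.85 ± 0.02.

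Cells of fine cluster 6 nevertheless differed between the sides of the border. Ptgds averaged 6.38 in the 905 cells in Oligo3 and 4.93 in the 316 in Oligo2, with differences of 1.47, 1.26, 1.85 and 1.21 in the libraries. Il33 averaged 1.56 and 0.77, and Enpp6 averaged 0.96 and 1.62. At the other border, the Oligo3 cells of fine cluster 7 averaged 3.12 for Glul against 1.96 in its Oligo4 cells, and 6.69 against 7.20 for Mal. Plekha1 was at 2.11 and 2.26 there, with no common sign over libraries. The genes of this paragraph were chosen after their values were seen.

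The leading genes of fine cluster 7 differed in the direction of Oligo4. Of 9414 genes compared with the other Oligo3 cells, 4 had higher levels (0.0425%) and 15 lower (0.159%). Plekha1 was at 2.09, 2.04, 2.19 and 2.11, a difference of 0.80 ± 0.03 (SD, n = 2 mice). The cytoskeletal linkers Dst (0.55), Add1 (0.51) and Ank3 (0.51), which tie membrane to cytoskeleton, were the other 3. This count was 1 without the cortex library of mouse 4, 2 without mouse 1 and 7 without mouse 4. Gng11 was lower by -0.99 ± 0.12 and Apod by -0.77 ± 0.11.

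The 5 leading genes of fine cluster 8 were above both neighbouring clusters. Of 9407 genes, 16 were higher (0.17%) and 3 lower (0.0319%), and without mouse 4 the lower genes numbered 1. Hcn2 was at 2.09, 2.59, 2.67 and 2.84, a difference of 1.62 ± 0.29 (SD, n = 2 mice), and its mean of 2.55 was above the 1.69 of Oligo2 and the 0.09 of Oligo4. Apoe was at 5.25, 4.26, 4.92 and 4.45, a difference of 1.19 ± 0.19, and its mean of 4.72 compared with 1.76 in Oligo2 and 1.97 in Oligo4. Glul was higher by 1.08, Ptgds by 1.02 and Pex5l by 0.81. Ptgds reached 8.18 there, the highest mean of the 6 groups compared.

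The myelin genes Mal (-0.76) and Cldn11 (-0.61) led the lower genes of fine cluster 8. The summed level of 17 myelin genes was 702 UMIs per 10000 in it and 871 to 912 in fine clusters 4, 6 and 7. Its median mitochondrial share was 5.97%, above the 5.19% to 5.41% of the other 3, and its astrocyte markers summed to 3.04 UMIs per 10000, against 1.56 to 2.10. Endothelial and mural markers summed to 2.99 in it and to 1.42 to 2.18 in the other 3. A neuronal UMI was held by 18.8% of its cells, against 9.61% to 12.3%. Neuronal markers summed to 0.23 in it, below the 0.27 of fine cluster 4 and above the 0.10 and 0.12 of fine clusters 6 and 7. Slc1a2, of the astrocyte list, was also among the 16 higher genes of fine cluster 8, at 0.51. These sums, medians and shares pooled the 4 libraries, and 358 of the 584 cells of fine cluster 8 came from the hippocampus of mouse 1. Over Oligo3 cells, that library had the lowest myelin sum (820, against 833 to 926) and the highest neuronal sum (0.70). Its median mitochondrial share (4.97%) and its astrocyte sum (2.06) were the lowest. The part of these values and of the mix of libraries in the differences was not tested.

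**Figure D4:**
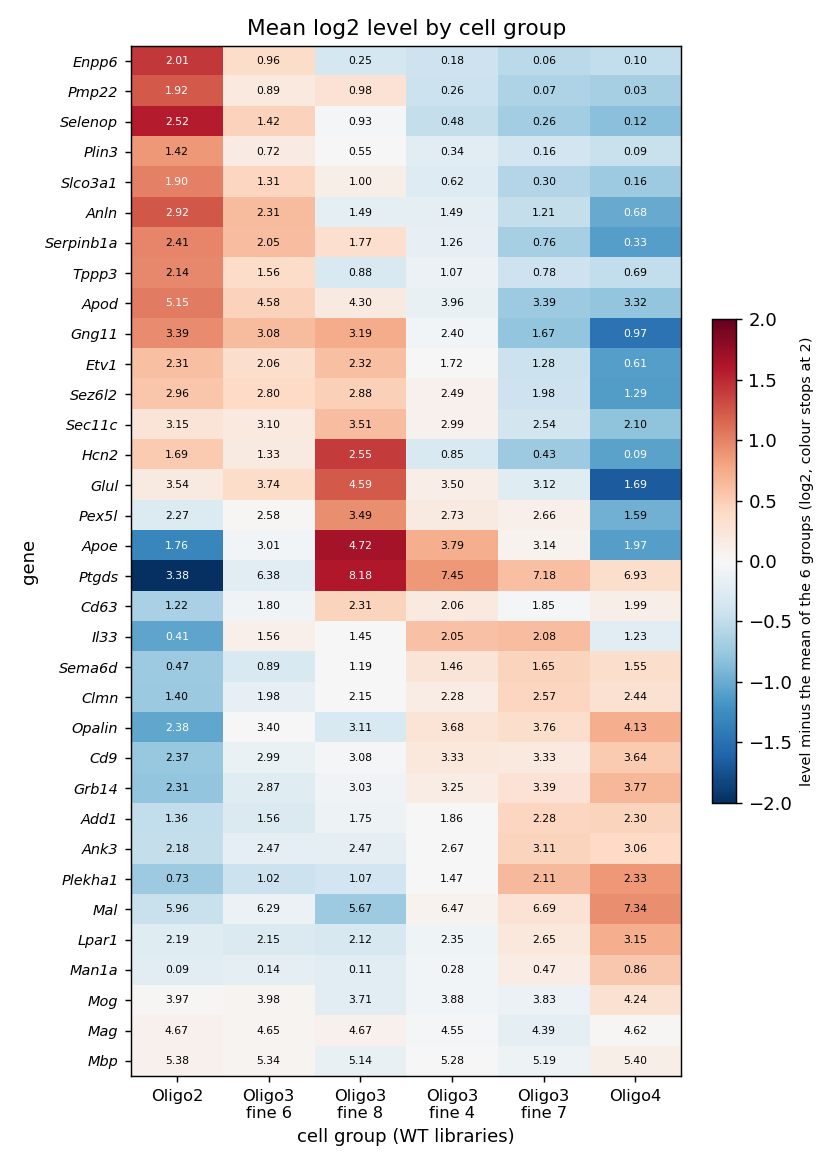
Mean log2 level (number in each cell, over 4 wild-type libraries) of the leading genes and of Mog, Mag and Mbp (rows) in Oligo2, the 4 larger fine clusters of Oligo3 and Oligo4 (columns), coloured by the difference from the mean of the 6 groups. Enpp6 falls from 2.01 in Oligo2 through 0.96 in fine cluster 6 to 0.06 in fine cluster 7, Plekha1 climbs from 0.73 to 2.33, and Hcn2, Glul, Apoe and Ptgds are highest in fine cluster 8.

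Some of the genes that marked Oligo3 also differed between the 2 mice. Over Oligo3 cells, 16 of 9117 genes were higher in both libraries of mouse 1 by 0.5 or more (0.175%) and 5 were higher in mouse 4 (0.0548%). Il33 averaged 2.41 in mouse 1 and 1.33 in mouse 4, and Apoe averaged 4.20 and 3.12, the largest upward differences. Neat1, a nuclear long noncoding RNA, averaged 1.79 and 0.92. Dst averaged 1.49 and 2.45, and AY036118, an RNA gene, averaged 1.12 and 2.41. Ptgds had the opposite order, with mouse 4 the higher animal in both tissues. With 1 animal on each side there was no test, and these genes were chosen after their values were seen.

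Hippocampus and cortex were then compared within Oligo3, the comparison whose groups did not enter the choice of cells. Over 9117 genes, no gene passed an adjusted p of 0.05 in either direction by limma with Benjamini-Hochberg adjustment (0%), and 39 had an unadjusted p under 0.05. The edgeR quasi-likelihood test on summed UMIs also called 0, with 41 at an unadjusted p under 0.05. Since both libraries with 1 number came from 1 animal, the fit with mouse as a block was set beside it, and it called 8 genes higher in the hippocampus (0.0877%) and 30 lower (0.329%). That fit leaves 1 residual degree of freedom, so its p-values rest on the variance shared across genes. Without the cortex library of mouse 1 the fit without a block called 1 gene higher and 4 lower, and without that of mouse 4 it called 4 higher and 1 lower.

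The genes named here are those with the largest differences among genes whose tissues did not overlap, which were 743 genes with both hippocampus libraries above both cortex libraries (8.15%) and 935 below (10.3%). On the low side 4 of the 5 were mitochondrial, the respiratory chain subunits mt-Nd3, mt-Cytb, mt-Co2 and mt-Co3. mt-Nd3 was at 3.002 and 3.38 in the hippocampus of mice 1 and 4 and at 3.40 and 4.04 in the cortex, a difference of -0.53 ± 0.25 (SE). Its adjusted p by limma was 1.00, and 8.43e-08 with mouse as a block. mt-Co3 was at 6.46 and 6.39 in the hippocampus and 6.61 and 6.74 in the cortex, a difference of -0.25 ± 0.09 (SE). Of all 13 mitochondrial genes, the fit with mouse as a block called 5 lower and 1, mt-Nd4l, higher in the hippocampus, and the list median was -0.21. Gm42418, an RNA gene, differed by -0.39 and was called with mouse as a block too.

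**Figure D5:**
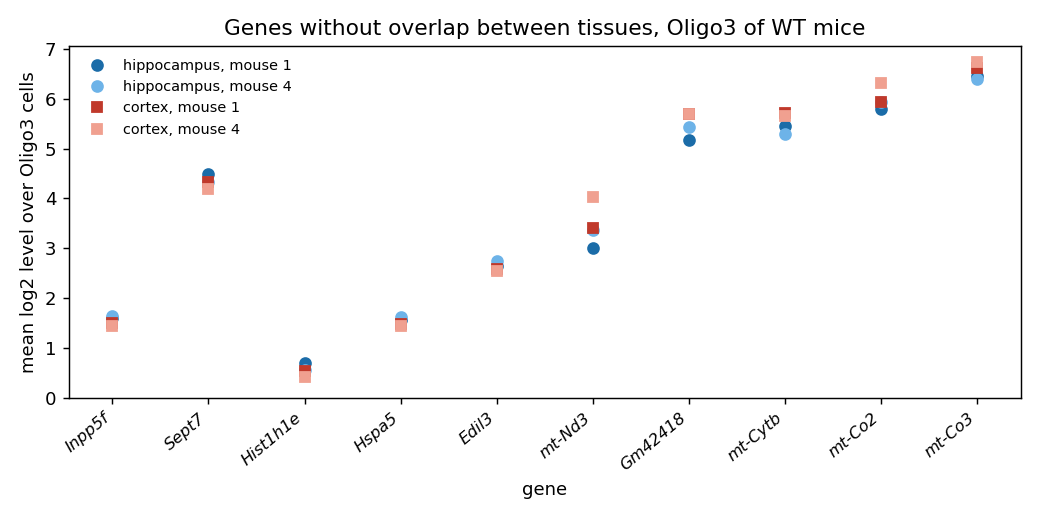
Mean log2 level over Oligo3 cells (vertical axis) of the 10 named genes (horizontal axis), with circles for hippocampus and squares for cortex libraries. mt-Nd3 lies between 3.002 and 3.38 in the hippocampus and between 3.40 and 4.04 in the cortex, and the 5 genes on the left differ by 0.13 to 0.16.

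On the high side the differences were small. The phosphatase gene Inpp5f differed by 0.16, Sept7 by 0.15, the linker histone Hist1h1e by 0.15, the chaperone Hspa5 by 0.13 and Edil3 by 0.13. Hist1h1e, at 0.70 and 0.57 in the hippocampus and 0.54 and 0.42 in the cortex, was the only one of these called with mouse as a block (limma, adjusted p = 9.78e-04). Ptgds was 0.14 higher in the hippocampus in that fit and Selenop lower by -0.17, though both genes overlapped between the tissues. Ptgds was at 7.30 in the hippocampus and 7.05 in the cortex of mouse 1, but at 7.39 and 7.37 in mouse 4. Selenop was at 0.50 and 0.73 in mouse 1 and at 0.78 and 0.89 in mouse 4. The microglial genes C1qb and Cx3cr1 were lower by -0.04 each in the same fit, at levels near 0. No gene of the myelin, transcription factor or cholesterol lists was called by either fit. Each tissue and mouse was a batch of its own, so the tissue and the batches cannot be told apart.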

How the data were processed

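The data were 10x Genomics droplet libraries of 2 wild-type mice, 1 hippocampus and 1 cortex library each. The authors aligned reads and counted UMIs with Cell Ranger 5.0.0 on the mm10 reference, filtered cells, kept mature oligodendrocytes and clustered them. Values in the deposited matrix are on a log2 scale, each UMI count having been divided by a scran size factor for its cell and increased by 1. The deposited cell table holds counts (total, gene and mitochondrial) and clusters at several resolutions. UMI counts were recovered from the matrix, and all values above 0 were whole within 0.001.

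Cells were sorted by scatter to exclude doublets and no doublet caller was run. Over all 8 libraries 21 barcodes occurred in more than 1 library, and 3 of them were shared between wild-type libraries (6 Oligo3 cells). Levels were averaged over cells per library. Marker sums, medians and shares of cells with a neuronal UMI by fine cluster pooled the cells of the 4 libraries. Cluster differences were taken within libraries and averaged over tissues, then over mice, for genes detected in 5% or more of the cells of either cluster. Oligo3 libraries were compared between tissues with limma 3.58.1 (eBayes with trend, Benjamini-Hochberg) in R 4.3.3. Alternatives used edgeR 4.0.16, mouse as a block, other scales (log2 of CPM of summed UMIs, plus 10), cells thinned to 5000 UMIs, other filters, single tissues, a limit of 1 and libraries left out. The numbers in the labels pair libraries, because each marks 1 animal, and the 2 tissues of a mouse deviated together over all genes (r = 0.85). In simulated cells over 9117 genes, limma recovered 71% of genes changed by 2-fold between tissues, and 7 calls were false. In the same test, a change of 2-fold between clusters was called in 16% of genes, and in 80% of those with a mean level of at least 1. The simulated libraries shared a common profile with small random noise, and no difference between mice was put in. Whether the 71% holds for real libraries, where genes differed between mice and the tissues of a mouse deviated together, was not tested.

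Named genes were the 10 highest and 10 lowest called differences from each neighbour, 5 highest and up to 2 lowest of each fine cluster, 5 and 5 without overlap between tissues, and list members. The members and lists were chosen with earlier results of these data known. Lists overlap in some genes. Gene and promoter coordinates are of GRCm38 (GENCODE and RefSeq). With 2 mice, the SD measures only the spread between these animals. Some values are not reported here.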

Additional observations from a re-analysis of the deposited data

Results flagged for a closer look

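Fine cluster 1 of Oligo3 held 22 cells, 12 of them in the hippocampus of mouse 1, and was not described as a group of its own, though its cells were among the other Oligo3 cells to which each larger fine cluster was compared. Its 6 neuronal markers summed to 27.2 UMIs per 10000, against 0.10 to 0.27 in fine clusters 4, 6, 7 and 8, a signal in cells to which no comparison was devoted. At least 1 neuronal UMI was found in 95.5% of its cells, against 11.9% in fine cluster 4. Its cells had a median of 12969.5 UMIs and 4306 genes, against 10233 and 3195 in fine cluster 4, and its myelin genes summed to 486 UMIs per 10000, against 871. No doublet caller was run, and the part of mixed droplets in this cluster was not tested.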

How the results depend on the processing

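With 2 mice, only tissues were compared by tests, and mean log2 values understate differences of genes with few UMIs. On log2 of CPM of summed UMIs plus 10, 199 genes were higher and 302 lower than in Oligo2, and 269 higher and 148 lower than in Oligo4; these held all genes called on the main scale. A limit of 1 left 4 higher and 7 lower than in Oligo2, 8 higher and 0 lower than in Oligo4, and 33 genes between the neighbours with Oligo3 in between for 31. In fine clusters that limit left 0 lower genes in 4, 0 higher and 1 lower in 6, 0 and 0 in 7, and 4 higher and 0 lower in 8. At equal depth 5 cholesterol genes were lower than in Oligo4 in all libraries, in place of 9. The counts against Oligo2 and Oligo4 stayed within 1.5 times under the other alternatives, which included single tissues, filters, equal depth, either mouse, the cortex library of mouse 4 or the small fine clusters left out. The last 2, the limit of 1 between the neighbours and the cholesterol count at equal depth were added after the data were seen.

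With a mouse or library left out, fine cluster 4 had 0 to 1 higher and 2 to 6 lower genes, fine cluster 7 had 1 to 7 higher and fine cluster 8 had 1 to 4 lower. Between tissues, leaving out a library gave 0 to 4 higher and 0 to 4 lower genes, where the lone library of a tissue was assumed to vary like the others. With mouse as a replicate block, 8 genes were higher and 30 lower in the hippocampus, in place of 0 and 0, and the share of Oligo3 differed by the same -1.20 points (paired exact permutation p of 1.0, smallest possible 0.5). The cause of these changes was not tested.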

Other observations

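Fine cluster 9 held 29 Oligo3 cells, 16 of them in the cortex of mouse 1, with a median mitochondrial share of 0.71%, against 5.19% to 5.97% in fine clusters 4, 6, 7 and 8. Its median was 12024 UMIs and 3521 genes, and its myelin genes summed to 899 UMIs per 10000, within the 702 to 912 of those fine clusters.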
